A study of Homo sapiens with 12 samples.

Results

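The 9 genes F3, TFPI, TFPI2, THBD, PLAU, PLAT, PLAUR, SERPINE2 and A2M were followed through 12 melanoma RNA-seq libraries. They encode tissue factor, its inhibitors, a thrombin-binding membrane protein, the plasminogen activators, the urokinase receptor and protease inhibitors. They were chosen by symbol, with their CPM (counts scaled to library size) in resistant against control cells and in line against line already in view, and all 9 were found among 36675 gene identifiers listed in either of 2 count tables. Those contrasts chose the genes, so their values below are a description and carry no test, and tests are given only for other genes of the pathway.

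A375 and CHL1 are human melanoma cell lines. Palbociclib inhibits the cell cycle kinases CDK4 and CDK6. The groups were palbociclib-resistant A375 cells (A375AR991, raised under increasing palbociclib over 7 months), A375 control cells, palbociclib-resistant CHL1 cells (CHL1AR991, over 3 months) and CHL1 control cells, with 3 libraries each. Resistant cells were maintained in 4 µM palbociclib, control cells never received the drug, and the protocol gives 72 h of drug-free medium before RNA extraction. The labels name 1 resistant derivative per line and do not say that libraries came from separate cultures, so the spread between libraries may be technical.

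Tissue factor is the membrane receptor that starts blood coagulation by binding factor VIIa, and tissue factor pathway inhibitor shuts that complex off. Plasminogen activators cut plasminogen into plasmin, a protease that dissolves fibrin and helps to degrade extracellular matrix, and serpins trap the activators. Melanoma cells are known to make tissue factor and plasminogen activators, which have been studied for their part in invasion and in tumour-linked clotting.

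Library totals ran from 25398920 to 29812686 counts, so that 3 counts stood for 0.101 to 0.118 CPM. Of 8 melanocyte markers, SOX10, MITF and S100B were expressed in every group. The others were low in A375 and, but for DCT, in CHL1 as well. PMEL averaged 0.73 to 1.07 CPM and MLANA 0.460 to 0.732 CPM over the groups. DCT averaged 0.395 and 0.0878 CPM in resistant and control A375, and 19.1 and 44.6 CPM in resistant and control CHL1. TYRP1 averaged 1.74 CPM in resistant and 0.210 CPM in control A375, without overlap. In resistant and control CHL1 it averaged 1.26 and 1.21 CPM. TYR had values in CHL1 only (0.494 and 0.509 CPM). S100B averaged 12.3 and 18.1 CPM in resistant and control A375, which overlapped. In resistant and control CHL1 it averaged 184.1 and 114.4 CPM, without overlap. MITF was lower in resistant cells of both lines (33.1 against 46.2 CPM in A375, 25.75 against 33.4 CPM in CHL1). The melanocyte markers thus did not move as one. SOX10 averaged 295.5 and 400.3 CPM in resistant and control A375, and 1031 and 1052 CPM in CHL1. That was most of the melanocyte sums. The summed melanocyte markers were 254 to 395 CPM in resistant and 414 to 566 CPM in control A375, and 1160 to 1360 CPM in resistant and 1130 to 1370 CPM in control CHL1. Summed fibroblast markers (6 genes) were 41.1 to 50.8 CPM in resistant and 19.3 to 24.3 CPM in control A375, and 11.5 to 14.0 CPM in resistant and 17.0 to 23.1 CPM in control CHL1. These markers did not move together. In A375, COL1A2 (mean 13.9 CPM in resistant, 0.384 in control) and LUM (20.2 and 6.765) were higher in resistant cells. PDGFRB (3.62 and 8.08) was lower, and COL1A1, DCN and THY1 overlapped. In CHL1, LUM averaged 7.39 CPM in resistant and 14.8 CPM in control cells. PDGFRB averaged 3.81 CPM in resistant and 3.25 CPM in control CHL1, apart by a narrow gap (3.329 against 3.3 CPM). Summed endothelial markers (6 of the 7 listed, since PECAM1 was not analysed here) were 9.64 to 15.2 CPM in resistant and 6.08 to 13.8 CPM in control A375, and 1.58 to 2.21 CPM in resistant and 1.99 to 2.93 CPM in control CHL1. KDR made up most of them, with means of 10.2 and 8.22 CPM in resistant and control A375, and 1.41 and 2.06 CPM in CHL1. The 3 hepatocyte markers summed to at most 0.435 CPM. The leukocyte markers summed to 55.2 to 72.8 CPM in resistant and 55.3 to 79.7 CPM in control A375, against at most 11.8 CPM in resistant and 11.9 CPM in control CHL1. Keratinocyte markers summed to 64.5 to 69.4 and 76.4 to 93.5 CPM in resistant and control A375, against 11.1 to 14.0 and 12.3 to 13.3 CPM in resistant and control CHL1. Single genes made up most of these sums. In resistant and control A375 they were CD68 (means 61.8 and 58.9 CPM) and KRT10 (62.75 and 60.1 CPM). In resistant and control CHL1 they were PTPRC (9.23 and 9.54 CPM) and KRT10 (8.41 and 10.7 CPM). KRT14 averaged 4.38 CPM in resistant and 22.4 CPM in control A375. It ran the other way in CHL1, with 3.61 CPM in resistant and 1.715 CPM in control cells, without overlap. The part of these markers in the results was not tested, and in bulk RNA fewer cells of a type and less RNA per cell cannot be told apart.

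The promoters of F3, lower in resistant cells of both lines, of TFPI2, higher in resistant A375, and of the urokinase receptor gene PLAUR are printed because they are the members matched here that hold an AP-1 motif. Of the 9 genes 6 were matched in RefSeq (GRCh38.p14), and each stretch is the 250 bases before the gene start, 5′ to 3′ on the gene's strand, with capitals for motif matches.
F3: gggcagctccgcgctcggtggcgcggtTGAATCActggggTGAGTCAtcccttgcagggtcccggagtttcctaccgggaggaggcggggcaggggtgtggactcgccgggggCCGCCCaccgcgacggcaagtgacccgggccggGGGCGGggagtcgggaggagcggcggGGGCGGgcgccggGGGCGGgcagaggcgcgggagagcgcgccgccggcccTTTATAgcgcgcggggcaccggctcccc
TFPI2: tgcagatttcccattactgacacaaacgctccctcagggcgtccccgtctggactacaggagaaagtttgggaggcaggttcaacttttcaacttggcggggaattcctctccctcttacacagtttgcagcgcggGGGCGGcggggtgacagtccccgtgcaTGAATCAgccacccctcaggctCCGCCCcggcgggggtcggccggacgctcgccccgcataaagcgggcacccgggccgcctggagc
PLAUR: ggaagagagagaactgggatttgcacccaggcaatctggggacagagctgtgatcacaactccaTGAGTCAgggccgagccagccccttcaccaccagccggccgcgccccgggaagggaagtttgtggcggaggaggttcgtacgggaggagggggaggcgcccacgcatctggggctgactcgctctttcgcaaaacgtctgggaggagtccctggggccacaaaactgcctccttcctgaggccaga
They lie on the minus strand at chr1:94541760-94542009, chr7:93890754-93891003 and chr19:43670170-43670419. Motifs were searched on both strands. The AP-1 motif was TGANTCA, which reads the same on either strand. The GC box was GGGCGG or its reverse complement. The TATA box was TATAAA or its reverse complement. The E-box was CACGTG. No matches of different motifs overlapped. The F3 stretch holds AP-1 motifs at positions -223 and -210 from the start, 4 GC boxes and 1 TATA box at -28. The TFPI2 stretch holds 1 AP-1 motif at -87 and 2 GC boxes, and the PLAUR stretch 1 AP-1 motif at -186. Among 35116 RefSeq promoter windows of the same length, 6.57% hold the AP-1 motif, 42.6% the GC box, 10.7% the TATA box and 6.34% the E-box. The unprinted SERPINE2 stretch holds 1 GC box and 1 E-box, and those of TFPI and PLAU hold none of these motifs. The F3 stretch has 34 CpG dinucleotides, that of TFPI2 has 20, PLAUR 13, SERPINE2 6, PLAU 4 and TFPI 2, against a median of 11 over those windows. A match is a description of the letters only.

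F3 mRNA was 2.12-fold lower in resistant A375 and 2.19-fold lower in resistant CHL1, PLAT mRNA was 1.44-fold higher in resistant A375 and 1.54-fold higher in resistant CHL1, and TFPI2 mRNA was 5.3-fold higher in resistant A375 but not higher in resistant CHL1. Levels below are CPM scaled with TMM factors over all 12 libraries, means ± SD, and fold changes are resistant over control on the log2 scale ± SE from a fit within each line. All 9 genes passed the low-count filter in A375 and 6 did in CHL1, where THBD, PLAU and A2M were too low. In A375 the 3 resistant libraries stood clear of the 3 control libraries for 7 of the 9 genes, 4 higher and 3 lower, beside 42.8% of the 18086 genes tested (20.9% higher, 21.9% lower). In CHL1 they stood clear for 3 of the 9, 1 higher and 2 lower, beside 36.9% of 17219 genes (17.4% higher, 19.4% lower). The genes were chosen on these contrasts, so nothing is read from these counts.

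**Figure D1:**
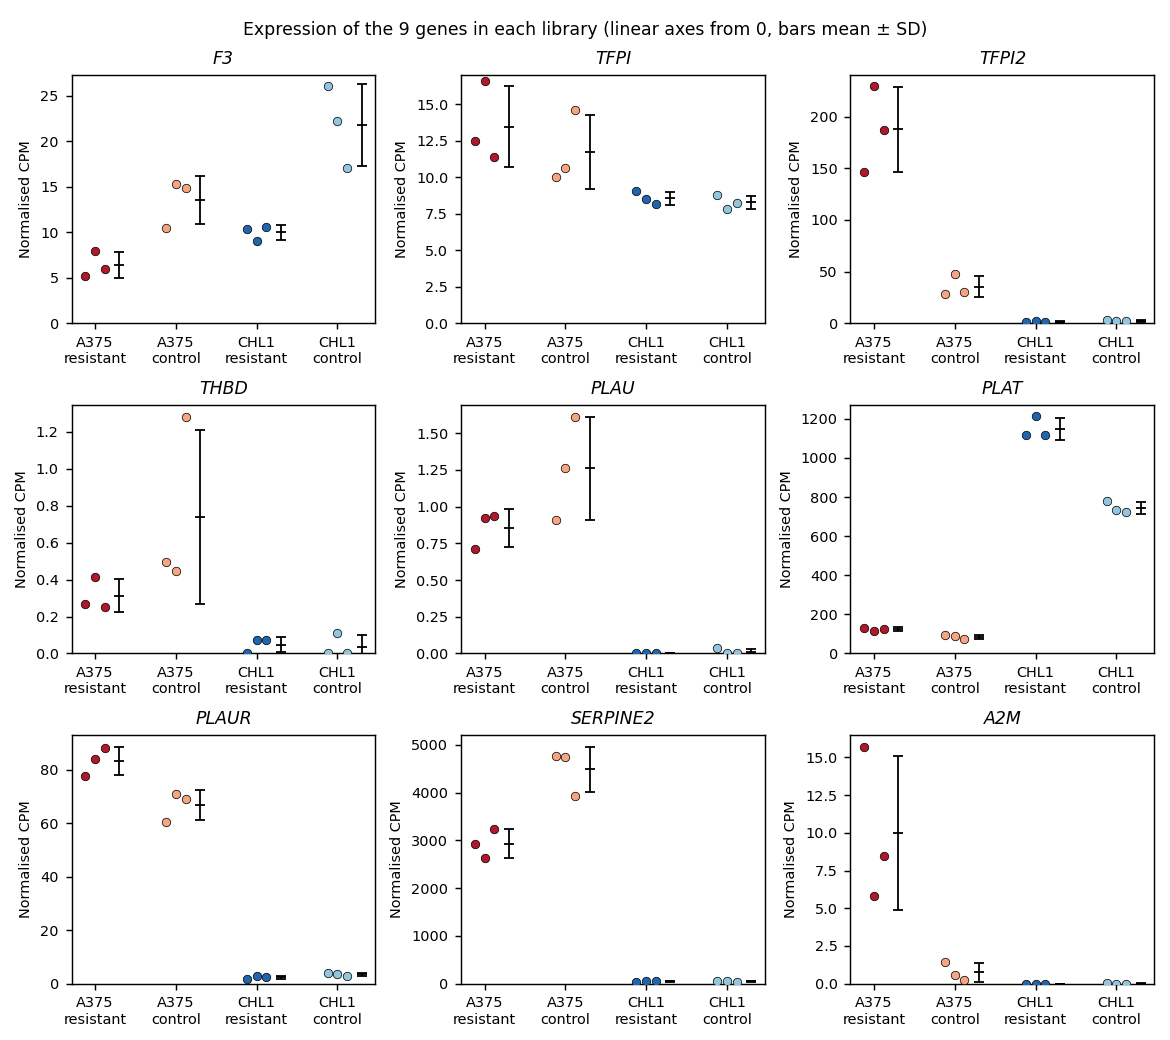
Normalised CPM of each gene (one panel per gene, linear axes from 0) in the 3 libraries of resistant A375, control A375, resistant CHL1 and control CHL1 cells, with the mean ± SD beside the points, the bars drawn down to 0 at most. F3 is lower in the resistant cells of each line, and TFPI2 reaches 146.9 to 229.4 CPM in resistant A375 against 28.5 to 47.3 CPM in control A375.

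Tissue factor mRNA was lower in resistant cells of either line. F3 (ENSG00000117525, chromosome 1) had 5.23, 7.94 and 5.99 CPM in resistant A375, against 10.5, 15.3 and 14.9 CPM in control A375. F3 had 10.4, 9.08 and 10.6 CPM in resistant CHL1 cells, against 26.0, 22.3 and 17.1 CPM in control cells. The highest resistant library was below the lowest control library in each line. The log2 fold change was -1.08 ± 0.19 in A375 and -1.13 ± 0.13 in CHL1 (n = 3 per group), and the difference between these changes (A375 minus CHL1) was 0.04 ± 0.25. The 20 nearest tested protein-coding genes, 10 on each side, had a median log2 fold change of -0.02 in A375 and -0.11 in CHL1.

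The inhibitors and the thrombin receptor on the anticoagulant side did not move as one. TFPI (chromosome 2), the inhibitor of the tissue factor and factor VIIa complex, had 12.4, 16.6 and 11.4 CPM in resistant A375 and 9.98, 10.6 and 14.6 CPM in control A375. TFPI had 9.04, 8.50 and 8.16 CPM in resistant CHL1 cells and 8.76, 7.83 and 8.22 CPM in control cells. The groups overlapped in both lines, with log2 fold changes of 0.20 ± 0.18 in A375 and 0.05 ± 0.09 in CHL1.

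TFPI2 (ENSG00000105825, chromosome 7) encodes a related Kunitz-type inhibitor that is deposited in the extracellular matrix and inhibits plasmin. It had 146.9, 229.4 and 186.8 CPM in resistant A375, against 28.5, 47.3 and 30.7 CPM in control A375. Resistant CHL1 cells had 1.46, 1.77 and 1.34 CPM, against 3.08, 2.00 and 1.88 CPM in control cells. The A375 groups lay far apart, while in CHL1 the highest resistant and the lowest control library were close. The log2 fold change was 2.40 ± 0.21 in A375 and -0.61 ± 0.21 in CHL1, where it was -0.35 without control replicate 1. The difference between these changes was 3.01 ± 0.42, while the 20 nearest tested genes had medians of 0.05 in A375 and 0.01 in CHL1. GNGT1 shares 44 and AC002076.1 shares 79 exon bases with TFPI2 on the opposite strand, and they had at most 9 and 3 counts in any A375 library. These counts do not show whether reads over the shared bases were dropped from TFPI2.

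THBD (chromosome 20), the thrombin-binding membrane protein that switches thrombin to the activation of protein C, was near the detection limit. It had 8, 13 and 7 counts in resistant A375 and 13, 12 and 35 counts in control A375, a log2 fold change of -1.23 ± 0.48. Without control replicate 3, the library with 35 counts, this change was -0.57. THBD had 0, 2 and 2 counts in resistant CHL1 cells and 0, 3 and 0 counts in control cells, under or at the floor of 3 counts per library, so no fold is given.

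The plasminogen activators stood at different levels in the lines, with PLAT higher in CHL1 and PLAU higher in A375. PLAT (ENSG00000104368, chromosome 8), tissue-type plasminogen activator, had 132.0, 112.5 and 125.7 CPM in resistant A375, against 94.7, 88.8 and 74.5 CPM in control A375. PLAT had 1117, 1215 and 1117 CPM in resistant CHL1 cells, against 778, 731.5 and 723 CPM in control cells. Every resistant library was above every control library of its line, with log2 fold changes of 0.52 ± 0.09 in A375 and 0.62 ± 0.05 in CHL1. The difference between them was -0.11 ± 0.11, and the 20 nearest tested genes had medians of 0.03 in A375 and 0.06 in CHL1.

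PLAU (chromosome 10), urokinase-type plasminogen activator, was low in A375 and all but undetected in CHL1. It had 0.708, 0.925 and 0.932 CPM in resistant A375, against 0.911, 1.26 and 1.61 CPM in control A375, groups that overlapped (log2 fold change -0.56 ± 0.26, and -0.34 without control replicate 3). The CHL1 tables gave it 0, 0 and 0 counts in resistant cells and 1, 0 and 0 counts in control cells. GENCODE release 29 places exons of C10orf55 over 916 exon bases of PLAU on the opposite strand. The libraries do not mark the strand, so reads of this pair cannot be told apart, and C10orf55 had at most 2 counts in any library. How reads over both genes were counted is not given. If they were dropped, the PLAU counts are too low, and the low C10orf55 counts cannot show whether they were.

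PLAUR (ENSG00000011422, chromosome 19) encodes the receptor that holds urokinase at the cell surface. It had 77.8, 84.0 and 88.3 CPM in resistant A375, against 60.6, 71.0 and 69.0 CPM in control A375. In CHL1 it had 1.87, 2.86 and 2.43 CPM in resistant cells, against 4.15, 3.52 and 2.75 CPM in control cells. The A375 groups did not overlap and the CHL1 groups did. The log2 fold change was 0.32 ± 0.08 in A375 and -0.54 ± 0.19 in CHL1. In A375 the 20 nearest tested genes on chromosome 19 had a median of 0.57, above that of PLAUR, with quartiles of 0.32 and 0.67, and in CHL1 their median was -0.07. The part of this neighbourhood in the PLAUR value was not tested.

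**Figure D2:**
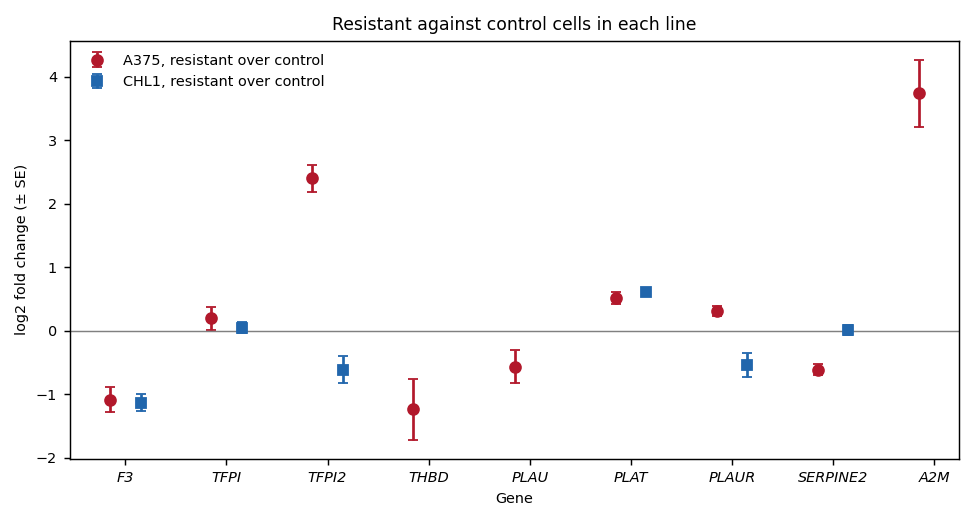
Log2 fold change of resistant over control cells (± SE, 3 libraries per group) for each gene in A375 and in CHL1, with CHL1 left out for THBD, PLAU and A2M, which were too low there. F3 lies near -1.1 and PLAT between 0.52 and 0.62 in both lines, whereas TFPI2 lies at 2.40 in A375 and -0.61 in CHL1.

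Of the inhibitors, SERPINE2 was abundant in A375 and A2M appeared there mainly in resistant cells. SERPINE2 (ENSG00000135919, chromosome 2), also called protease nexin-1, is a serpin that traps thrombin, urokinase and tissue-type plasminogen activator. It had 2926, 2630 and 3239 CPM in resistant A375, against 4778, 4742 and 3934 CPM in control A375. These were 0.277% to 0.340% of all counts in resistant and 0.406% to 0.496% in control A375 libraries. Resistant CHL1 cells had 45.3, 50.8 and 46.8 CPM, against 50.7, 49.9 and 39.9 CPM in control cells. Resistant libraries were below control libraries in A375 and overlapped with them in CHL1, with log2 fold changes of -0.61 ± 0.09 and 0.02 ± 0.08. The 20 nearest tested genes had medians of 0.09 in A375 and 0.05 in CHL1.

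A2M (ENSG00000175899, chromosome 12), a secreted inhibitor that traps proteases of many classes, plasmin among them, had 466, 182 and 237 counts in resistant A375, against 38, 16 and 6 counts in control A375. On the CPM scale these were 15.7, 5.80 and 8.50 in resistant and 1.44, 0.593 and 0.220 in control A375, a wide spread within groups that did not overlap. The log2 fold change was 3.74 ± 0.53, and 4.61 without control replicate 1. In CHL1 it had 0 counts in each resistant library and 1, 0 and 0 counts in control cells, so no fold is given. A2M-AS1 shares 561 exon bases on the opposite strand and had at most 7 counts in any A375 library, which does not show whether reads over the shared bases were dropped from A2M.

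SERPINE2 led these genes in A375 and PLAT led them in CHL1, in resistant and in control cells alike. Below them TFPI2 and A2M stood higher in the order in resistant than in control A375. For comparisons between genes, CPM was divided by the length of all annotated exons in kb (GENCODE release 29), which understates genes with long alternative exons such as TFPI. In resistant A375 the order per kb was SERPINE2 (329.7 ± 34.2), TFPI2 (70.0 ± 15.4), PLAUR (18.7 ± 1.18), PLAT (18.7 ± 1.5), F3 (2.22 ± 0.487), A2M (1.57 ± 0.803), TFPI (1.15 ± 0.235), PLAU (0.290 ± 0.0432) and THBD (0.0759 ± 0.0218), SD with n = 3. Neighbours in that order whose libraries overlapped were PLAUR with PLAT, F3 with A2M and A2M with TFPI. In control A375, SERPINE2 (504 ± 53.7 per kb) was followed by PLAUR (15 ± 1.24), TFPI2 (13.2 ± 3.82) and PLAT (13 ± 1.57), which overlapped, and then by F3 (4.72 ± 0.922), TFPI (1.00 ± 0.215), PLAU (0.427 ± 0.119), THBD (0.180 ± 0.114) and A2M (0.118 ± 0.0981), of which the last 3 overlapped in turn.

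In CHL1 the activator PLAT stood above the inhibitor SERPINE2. In resistant CHL1 the order per kb was PLAT (173.7 ± 8.56), SERPINE2 (5.36 ± 0.322), F3 (3.48 ± 0.280), TFPI (0.732 ± 0.0379), TFPI2 (0.569 ± 0.0831) and PLAUR (0.535 ± 0.112), with TFPI2 and PLAUR overlapping. In control CHL1 it was PLAT (112.5 ± 4.49), F3 (7.58 ± 1.56), SERPINE2 (5.27 ± 0.675), TFPI2 (0.864 ± 0.246), PLAUR (0.780 ± 0.157) and TFPI (0.706 ± 0.0403), the last 3 overlapping in turn. F3 and SERPINE2 thus stood in the opposite order in resistant and control CHL1, without overlap in either. THBD, PLAU and A2M stood below 0.02 per kb in CHL1 on average.

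**Figure D3:**
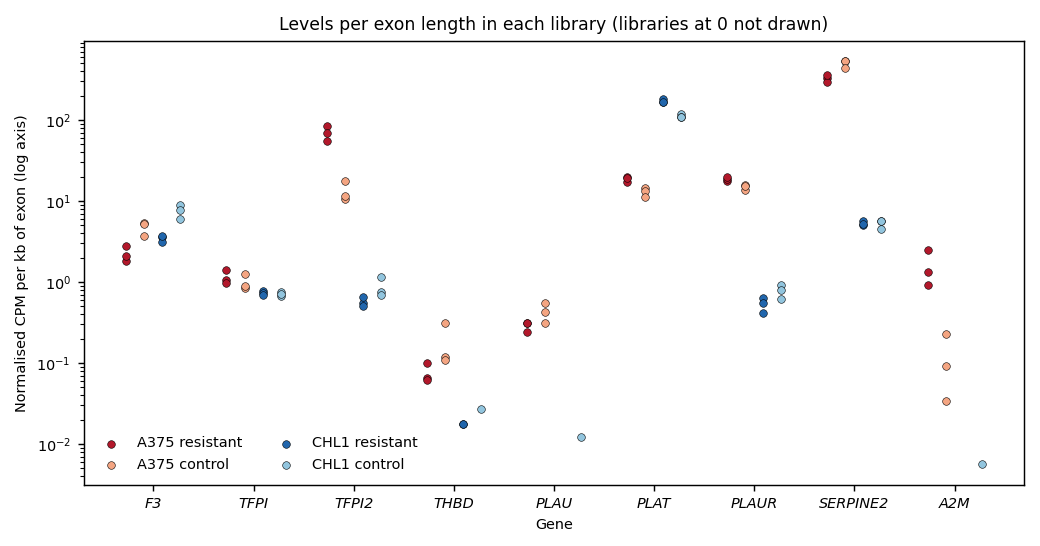
Normalised CPM per kb of exon (log axis) of each gene in each library of resistant A375, control A375, resistant CHL1 and control CHL1 cells, with libraries at 0 not drawn. SERPINE2 is the highest of the 9 genes in A375 and PLAT the highest in CHL1.

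Among 16524 protein-coding genes ranked by the same quantity, SERPINE2 stood at rank 56 in resistant and 36 in control A375, but at 6806 in resistant and 6874 in control CHL1. PLAT stood at rank 127 in resistant and 285 in control CHL1, against 2422 in resistant and 3485 in control A375. TFPI2 stood at rank 519 in resistant and 3416 in control A375. The ratio of PLAT to SERPINE2 per kb was 0.0567 ± 0.00427 in resistant and 0.0257 ± 0.000782 in control A375, and 32.4 ± 0.598 in resistant and 21.5 ± 2.46 in control CHL1 (SD, n = 3). The ratio of TFPI2 to F3 per kb was 31.5 ± 1.72 in resistant and 2.81 ± 0.557 in control A375, and 0.165 ± 0.0386 in resistant and 0.114 ± 0.0155 in control CHL1. The PLAT to SERPINE2 ratio was higher in every resistant library than in every control library of its line, and so was the TFPI2 to F3 ratio. In CHL1 the TFPI2 to F3 gap was narrow (0.136 against 0.127), and both genes were lower in resistant cells, F3 by more. The ratio of TFPI2 to TFPI differed by line. It was 61.3 ± 10.1 in resistant and 13.7 ± 5.26 in control A375, but 0.778 ± 0.115 in resistant and 1.22 ± 0.281 in control CHL1.

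Set line against line, all 9 genes had A375 and CHL1 libraries that did not overlap, 7 higher and 2 lower in A375. The background was 79.2% of 19241 genes in resistant cells (39.3% higher, 39.9% lower) and 77.2% in control cells (39.1% higher, 38.1% lower), and nothing is read from these counts either. SERPINE2 was 61.5-fold higher in A375 than in CHL1 among resistant cells (log2 5.94 ± 0.12) and 95.7-fold higher among control cells (6.58 ± 0.12). PLAUR was 34.7-fold higher among resistant and 19.1-fold higher among control cells, and TFPI2 123-fold and 15.2-fold higher. PLAT ran the other way, 9.35-fold lower in A375 than in CHL1 among resistant and 8.62-fold lower among control cells. F3 was 1.56-fold lower in A375 among resistant and 1.61-fold lower among control cells, and TFPI 1.57-fold and 1.42-fold higher.

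For the 3 genes near 0 in CHL1 the ratios rest on counts. Against a floor of 3 counts in each resistant CHL1 library, A2M was at least 95.6-fold higher and PLAU at least 8.21-fold higher in resistant A375. Among control cells the ratio by depth was 64.2 for A2M (95% exact counting interval 11.1 to 2580) and 109 for PLAU (19.1 to 4350), each resting on 1 CHL1 count. THBD gave a ratio of 6.80 among resistant cells (2.38 to 26.7, from 28 against 4 counts) and 21.4 among control cells (6.98 to 107, from 60 against 3 counts). All 3 control CHL1 counts came from replicate 2, and 35 of the 60 control A375 counts from replicate 3, without which the fitted log2 difference for THBD was 3.49 in place of 4.15. These intervals and floors cover counting error only.

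The genes whose profiles over the 12 libraries came closest differed among the 8 members compared, THBD being left out because no group averaged 1 CPM. Closeness was the root mean square difference of centred log2(CPM + 0.25) profiles, among 14423 genes, and the libraries share line, state and scaling, so it is a description. For F3 the nearest were UGCG, a glucosylceramide synthase gene, at 0.313 and FRY at 0.317. UGCG averaged 64.9 CPM in resistant and 86.8 CPM in control A375, and 91.0 CPM in resistant and 146.0 CPM in control CHL1. For TFPI2 they were TMEM47 at 0.317 and FAM133A at 0.360, both on chromosome X, and for A2M the tachykinin precursor gene TAC1 at 0.525 and the complement factor I gene CFI at 0.537. For PLAT they were PAM, which encodes a peptide-amidating enzyme, at 0.156 and APLP1 at 0.160, and for SERPINE2 the monocarboxylate transporter gene SLC16A7 at 0.187 and MYH13 at 0.199. PLAUR lay nearest to MPV17L at 0.247 and VCX2 at 0.259, TFPI to TIE1 at 0.135 and CEBPG at 0.141, and PLAU, whose low levels are flattened by the added 0.25, to SNAPC1 at 0.147 and USE1 at 0.165. In resistant and control CHL1, SLC16A7 averaged 0.0256 and 0.0124 CPM, and MYH13 0.0 and 0.0119 CPM. SERPINE2 averaged 47.65 and 46.86 CPM there, so its matches depend on the added 0.25. The genes nearest to TFPI2, PLAUR and A2M likewise averaged near or below 0.25 CPM in CHL1. Distances grow with the spread of a gene's own values, so they are not compared between members.

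Other genes of coagulation and plasminogen activation were then tested, from 6 lists of 63 genes in all by role, in edgeR's quasi-likelihood test with Benjamini-Hochberg adjustment over all genes and a threshold of 0.05. In A375, 37 of the 63 could be tested, and 6 rose and 7 fell in resistant cells. That is 35.1% called, beside 28.3% of all 18086 genes (13.4% higher, 14.8% lower). A fit with a replicate block called 22 in place of 13 in A375, and over all genes 6307 in place of 5111. In CHL1, 35 could be tested, and 10 rose and 6 fell, 45.7% beside 21.2% of all 17219 genes (9.11% higher, 12.1% lower). Without resistant replicate 3 the CHL1 count was 10 in place of 16. Fits that left out 1 CHL1 library gave 10 to 13 such calls, and 2634 to 3297 over all genes in place of 3645. The median log2 fold change of the tested genes was -0.04 in A375 and 0.05 in CHL1, beside -0.000844 and 7.86e-05 over all genes. Of the 32 genes tested in both lines, 7 were called in both, 4 in A375 and not in CHL1, 8 in CHL1 and not in A375, and 13 in neither.

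Clearance receptors take up inhibited proteases. In A375 1 of 8 rose and 1 fell, and in CHL1 3 of 9 rose and 1 fell. SORL1, a sorting receptor that can bind urokinase, had 23.3, 17.7 and 20.9 CPM in resistant A375, against 3.57, 2.52 and 3.81 CPM in control A375. It had 31.2, 26.0 and 24.9 CPM in resistant CHL1, against 18.2, 17.8 and 18.2 CPM in control CHL1. SORL1 rose by 2.64 ± 0.17 in A375 (edgeR adjusted p = 1.6e-05) and by 0.59 ± 0.09 in CHL1 (adjusted p = 0.00053), and the rise was larger in A375 by 2.05 ± 0.19 (adjusted p = 3.65e-06). MRC2, the collagen receptor that associates with the urokinase receptor, rose in CHL1 (0.38 ± 0.08, adjusted p = 0.00578) and LRP2 rose there by 0.23 ± 0.06 (adjusted p = 0.0227). LRP8 fell in A375 by 0.15 on the log2 scale (adjusted p = 0.0465), a call lost when any 1 of the 6 A375 libraries was left out (adjusted p from 0.062 to 0.171). The LRP2 call was lost without resistant replicate 1 (0.0797) or 3 (0.0512) or control replicate 1 (0.0765).

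Among the receptors through which thrombin and other proteases signal, 1 of 3 rose in A375 and 2 of 2 rose in CHL1. F2R, the thrombin receptor, had 212.9, 196.2 and 158.3 CPM in resistant A375, against 140.5, 133.2 and 163.0 CPM in control A375. It had 38.4, 40.6 and 38.7 CPM in resistant CHL1, against 24.4, 24.9 and 26.1 CPM in control CHL1. It rose by 0.64 ± 0.06 in CHL1 (adjusted p = 1.84e-05) and by 0.38 ± 0.11 in A375 (adjusted p = 0.0334), where the libraries overlapped and the call was lost without resistant replicate 1 (0.12) or 2 (0.0843) or control replicate 1 (0.088) or 2 (0.0932). F2RL1, a receptor cut by trypsin-like proteases, rose in CHL1 by 0.40 ± 0.09 (adjusted p = 0.0102, and 0.05 without resistant replicate 3).

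**Figure D4:**
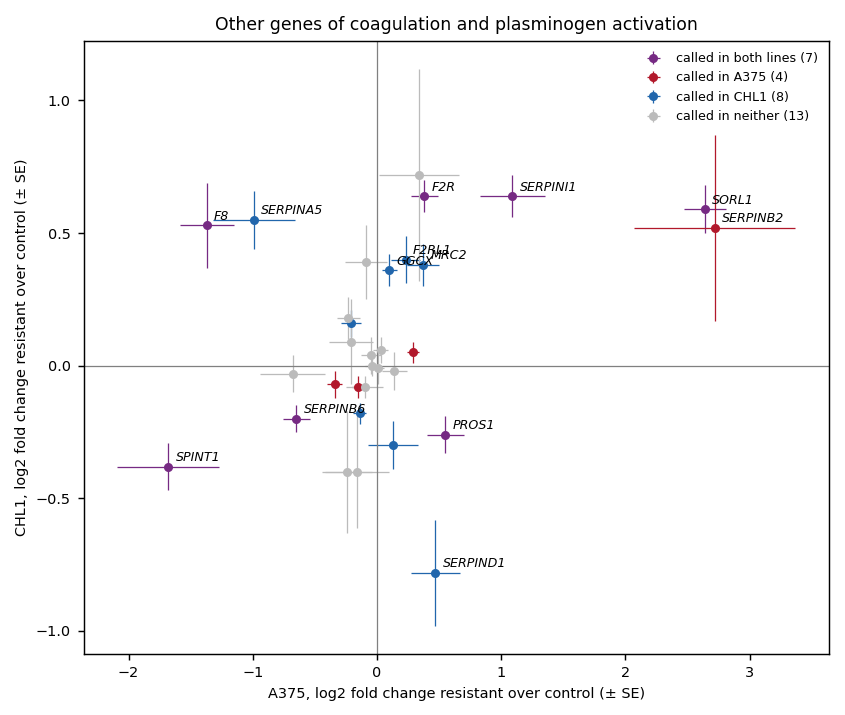
Log2 fold change of resistant over control cells in A375 (horizontal) and CHL1 (vertical), ± SE, for the 32 other pathway genes tested in both lines, coloured by the line in which they were called and with the larger called changes named. SORL1 lies at 2.64 and 0.59, and F8 and PROS1 lie on opposite sides of 0 in the 2 lines.

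The other protease inhibitors had the most calls in A375, with 2 of 9 rising and 4 falling, while in CHL1 1 of 7 rose and 2 fell. SERPINI1, neuroserpin, an inhibitor of tissue-type plasminogen activator, rose in both lines. It had 1.18, 1.12 and 1.61 CPM in resistant and 0.456, 0.741 and 0.623 CPM in control A375, a rise of 1.09 ± 0.26 (adjusted p = 0.0127). SERPINI1 in CHL1 had 34.6, 31.3 and 32.7 CPM in resistant and 23.3, 19.7 and 19.9 CPM in control cells, a rise of 0.64 ± 0.08 (adjusted p = 0.00012). SERPINB6 fell in both lines, with a log2 fold change of -0.65 ± 0.11 in A375 (adjusted p = 0.00266) and -0.20 ± 0.05 in CHL1 (adjusted p = 0.0138). Its CHL1 call was lost without resistant replicate 2 (0.0503) or 3 (0.057) or control replicate 1 (0.0759). SERPINA1, alpha-1 antitrypsin, changed by -1.23 ± 0.23 in A375 (adjusted p = 0.00455), where it averaged 2.09 ± 0.751 CPM in resistant and 4.88 ± 0.583 CPM in control cells. SPINT1, an inhibitor of matriptase and hepsin, fell in CHL1 (-0.38 ± 0.09, adjusted p = 0.0132, and 0.0552 without control replicate 3).

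The remaining A375 calls of this list are named after their values were seen. SPINT1 also fell in A375 (-1.68 ± 0.41, adjusted p = 0.014, 20 against 59 counts, and 0.057 without resistant replicate 3) and so did SERPINF2, alpha-2 antiplasmin (-1.44 ± 0.38, adjusted p = 0.0219). The SERPINF2 call was lost without resistant replicate 1 (0.0673) or 2 (0.0553) or control replicate 1 (0.0709) or 3 (0.0551). SERPINB2, plasminogen activator inhibitor-2, rose there by 2.72 ± 0.65 (adjusted p = 0.0134), from 67 counts in resistant against 9 in control cells.

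Among coagulation factors and the proteins that mature or export them, 1 of 7 rose and 1 fell in A375, and 2 of 8 rose in CHL1. F8, coagulation factor VIII, moved in opposite directions. It had 0.877, 0.670 and 0.789 CPM in resistant and 2.32, 1.59 and 2.12 CPM in control A375, a log2 fold change of -1.37 ± 0.22 (adjusted p = 0.00168). F8 in CHL1 had 2.19, 1.81 and 2.21 CPM in resistant and 1.40, 1.37 and 1.52 CPM in control cells, a rise of 0.53 ± 0.16 (adjusted p = 0.0386). The difference was -1.90 ± 0.26 (adjusted p = 0.000113). The F8 call in CHL1 was lost without resistant replicate 1 (0.0956) or 3 (0.12) or control replicate 1 (0.105), 2 (0.106) or 3 (0.0617), and with DESeq2 (0.173). LMAN1, the export receptor for factors V and VIII, rose in A375 by 0.29 ± 0.05 (adjusted p = 0.00179), and GGCX, the vitamin K-dependent carboxylase, rose in CHL1 by 0.36 ± 0.06 (adjusted p = 0.00176).

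Of the anticoagulants 1 of 5 rose in A375, and 1 of 5 rose and 2 fell in CHL1. PROS1, protein S, the cofactor of activated protein C, had 17.5, 12.3 and 15.9 CPM in resistant and 11.4, 8.64 and 11.3 CPM in control A375, a rise of 0.55 ± 0.15 (adjusted p = 0.027). PROS1 in CHL1 had 14.1, 14.6 and 14.1 CPM in resistant and 17.4, 16.8 and 16.9 CPM in control cells, a log2 fold change of -0.26 ± 0.07 (adjusted p = 0.0186). The difference was 0.80 ± 0.17 (adjusted p = 0.00342). The A375 call was lost without resistant replicate 1 (0.104) or 3 (0.089) or control replicate 2 (0.07), and the CHL1 call without resistant replicate 3 (0.0721) or control replicate 1 (0.0672) and with DESeq2 (0.052). SERPINA5, protein C inhibitor, rose in CHL1 by 0.55 ± 0.11 (adjusted p = 0.00353), and SERPIND1, heparin cofactor II, changed by -0.78 ± 0.20 (adjusted p = 0.0149), a call lost without control replicate 1 (0.0682) or 2 (0.0592).

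The mRNA of plasminogen itself was hardly present. PLG, named after its values were seen, had 11 counts over resistant and 7 over control A375 libraries, and 4 over resistant and 12 over control CHL1 libraries, and was not tested. Among its binding proteins and partners 1 of 5 fell in A375, and 1 of 4 rose and 1 fell in CHL1. S100A10, a cell-surface plasminogen receptor, changed by -0.34 ± 0.06 in A375 (adjusted p = 0.00301), where it averaged 345.6 ± 23.3 CPM in resistant and 437 ± 8.29 CPM in control cells. Its partner ANXA2 rose in CHL1 by 0.16 ± 0.05 (adjusted p = 0.0308), a call lost without resistant replicate 2 (0.0783) or 3 (0.0804) or control replicate 2 (0.0745) or 3 (0.0846). ENO1, a glycolytic enzyme that also binds plasminogen at the cell surface, changed by -0.18 ± 0.04 in CHL1 (adjusted p = 0.00903).

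The resistance effect itself differed between the lines for 11 of 40 tested pathway genes, 27.5% beside 23.6% of 19241 genes, with 4 higher and 7 lower in A375 than in CHL1 (11.7% and 11.9% of all genes). Line against line, 31 of 40 were called among resistant cells, 77.5% beside 76.6% of all genes (38.0% higher, 38.6% lower), and 33 of 40 among control cells, 82.5% beside 75.6% (38.2% higher, 37.4% lower).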

How the data were processed

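RNA of palbociclib-resistant and control A375 and CHL1 cells was sequenced in 12 libraries from an unstranded kit, per the labels' protocols. The authors deposited 2 tables of read counts per Ensembl gene, whole numbers without normalisation, made with HTSeq 0.5 among other tools (TopHat2, cutadapt 1.7, CASAVA 1.8.2 and limma), per the submitters' processing notes. Neither the genome build, the annotation nor the treatment of reads over several genes is given in the sources used here.

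Groups were taken from the sample labels. Counts were fitted in R 4.3.3 with edgeR 4.0.16 (TMM factors, filterByExpr with minimum count 10, quasi-likelihood F-test), within each table for resistant against control and over both tables (29735 shared genes) for line against line and for the difference of resistance effects. All p-values are two-sided and measure only the spread between these libraries. Each SE came from dividing the size of the log2 change by the root of its F statistic. Alternatives were RLE scaling, library size alone, no filter, a filter of 1 CPM in 3 libraries, DESeq2 1.42.0, a replicate block and leaving out each library. Low counts got exact 95% intervals. Symbols came from a table of gene names and from GENCODE release 29, which gave exon lengths and gene order. The fits were also run on simulated counts with a fixed dispersion, no shared replicate effect and no changes planted in low-count genes. That run therefore says nothing of the low-count calls given here. Figures used Python 3.11.15 with matplotlib 3.10.9.

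The 9 genes, the lists and the tests were chosen with earlier results of these data known. Named pathway genes were up to 3 per role list and line with the smallest adjusted p among those called, plus those called in opposite directions with a called difference. Promoter sequences are RefSeq's (GRCh38.p14). Motifs were chosen after the values were seen.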

Additional observations from a re-analysis of the deposited data

Results flagged for a closer look

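TFPI2 moved in opposite directions in the lines, with all resistant libraries above the control libraries in A375 and below them in CHL1. In CHL1 the gap was narrow, 1.773 CPM in the highest resistant against 1.875 CPM in the lowest control library. The CHL1 log2 fold change was -0.61 ± 0.21, and -0.35 without control replicate 1. The log2 fold changes differed by 3.01 (A375 minus CHL1), and this difference was not tested, since the gene was chosen on these contrasts.

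Of the other pathway genes named, 10 had resistance effects that differed between the lines in the interaction test of edgeR with Benjamini-Hochberg adjustment. The log2 difference, A375 minus CHL1, was 2.05 for SORL1, 1.25 for SERPIND1, 0.80 for PROS1 and 0.23 for LMAN1. It was -1.90 for F8, -1.54 for SERPINA5, -1.31 for SPINT1, -0.46 for SERPINB6, -0.37 for ANXA2 and -0.27 for S100A10. Of these, 3 lost the call when 1 library was left out. S100A10 lost it without A375 resistant replicate 1 (adjusted p = 0.0574), A375 control replicate 2 (0.0644), CHL1 resistant replicate 3 (0.0644) or CHL1 control replicate 2 (0.0667). SERPINB6 lost it without A375 resistant replicate 2 (0.0613) or CHL1 control replicate 3 (0.0556). SPINT1 lost it without A375 resistant replicate 2 (0.0616) or 3 (0.088) or A375 control replicate 1 (0.0869).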

How the results depend on the processing

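The number of genes called stayed within 1.5 times the value given in each of the 5 comparisons under every alternative. The fits that left out a library gave 3782 to 4738 calls in A375, 2634 to 3297 in CHL1, 14299 to 14992 for A375 against CHL1 among resistant cells, 14123 to 14740 among control cells and 3760 to 4519 for the difference of effects. The pathway genes called numbered 9 to 13 in A375, 10 to 13 in CHL1, 31 to 32 and 30 to 35 line against line and 9 to 12 for the difference of effects in those fits. With the replicate number as a block, 22 pathway genes were called in A375 in place of 13, and 16 in CHL1. Over all genes the block gave 6307 calls in A375 in place of 5111, and 4305 in CHL1 in place of 3645. In each line the resistant and the control libraries carry the same labels S2, S3 and S4, here replicates 1 to 3. Whether these numbers pair the libraries was not settled, and the main fits had no block. Deviations of same-numbered libraries correlated at 0.553, 0.533 and -0.016 in A375 and at 0.321, -0.026 and 0.195 in CHL1. In A375, resistant replicates 1 and 2 correlated best with their own number, and at -0.474 and -0.613 with the other of these numbers. Resistant replicate 3 of A375 correlated best with control replicate 1 (0.177). In CHL1, resistant replicate 1 correlated best with its own number, and resistant replicate 2 with control replicate 3 (0.112). Resistant replicate 3 of CHL1 correlated about equally with its own number (0.195) and with control replicate 2 (0.185). Of 658 values of the 9 genes under alternatives, 627 moved by less than 1 SD between libraries, and 30 of the 31 others belonged to THBD, PLAU or A2M, whose counts are low. Of 38 pathway calls named, differences of effects included and 11 of them added to these fits after the data were seen, 22 were kept in every alternative that could test them, and none reversed. DESeq2 also lost the CHL1 calls of F8 (adjusted p = 0.173) and PROS1 (0.052), and the LRP8 call in A375 was lost as well with RLE scaling (0.0518), library size alone (0.0639), no low-count filter (0.102) and DESeq2 (0.117). The cause was not tested. Depth limits what can be said of THBD, PLAU and A2M in CHL1, where each group had at most 4 counts.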
